A study of Mus musculus with 27 samples.

Results

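The lncRNAs described here are the intergenic multi-exon features of the NONCODE catalogue in a polyadenylated RNA-seq series of C57BL/6J mouse hearts.
A feature was taken from the deposited annotation when it carried an n-number identifier and the lncRNA biotype, lay more than 5 kb from the span of every protein-coding gene, and had at least 2 exon blocks after its transcripts were merged.
The rule used positions and exon structure only, and 4475 of the 57683 annotated features met it.
In all, 36991 features carried n-numbers, and 3420 others passed the distance but had a single block.
NONCODE is a database of noncoding transcripts, and its entries are gene models, many of them built from cDNA clones or sequenced fragments.

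Long noncoding RNAs are transcripts without a long open reading frame that are made by RNA polymerase II and are often spliced and polyadenylated like messenger RNAs.
Those that lie apart from coding genes are often studied as separate genes, because their reads are less easily those of a coding gene's untranslated ends, introns or antisense strand.
In heart, several are known for roles in lineage commitment or in the response to pressure overload, among them Braveheart (Bvht), Carmn and Miat.

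The 27 libraries came from 7 whole hearts of E13.5 embryos and from the ventricular apex of 20 adult hearts.
The adults were 6 unoperated at 6 weeks of age, 6 unoperated at 16 weeks, 4 sham-operated at 12 weeks and 4 at 12 weeks after 4 weeks of transverse aortic constriction (TAC).
In this operation a band narrows the aortic arch and raises the pressure the heart pumps against.
The labels name no genotype or transgene; adults were labelled male except 1 female TAC heart, and the sex of the embryos was not given.
The embryonic libraries thus hold atria and valves that the adult apex lacks, so developmental stage and dissection cannot be told apart, and in bulk RNA fewer cells of a type and less RNA per cell cannot be told apart either.
The labels do not say whether hearts of a group shared a litter or an operating day, so p-values measure the spread between these libraries.

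Libraries held between 2092270 and 12646039 counts.
The 12 unoperated adult libraries were the shallow ones, with at most 2682955 counts each, while the other 15 held at least 7543375.
In 8 of the 20 adult libraries the counts of Y-linked genes went against the labelled sex, 2 in each of the 6-week, 16-week, sham and TAC groups, and calls were repeated without them.
Marker genes differed between the groups compared: over 7 cardiomyocyte markers the summed level was 21223 to 28185 CPM (counts scaled to library size) in E13.5 and 104814 to 172802 in adults.
Over 6 red-cell markers it was 10076 to 39084 in E13.5 and at most 79.5 in adults.
Over 7 fibroblast markers it was 1201 to 1350 in sham and 2438 to 4821 in TAC.
Over 7 macrophage and leukocyte markers the sum was 341 to 374 CPM in sham and 458 to 626 in TAC; the part of these shifts in the results below was not tested.

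Each lncRNA was described by its structure first.
The median feature had 1229 exonic bases (interquartile range 673 to 2134.5) and 3 exon blocks, 1865 features (41.7%) had 2 blocks, and the median distance to the nearest coding gene was 50.4 kb.
The 4475 features fell into 3456 loci of shared same-strand exons, and 656 features had no exonic base that another feature did not also cover.
A chain of intron and internal exon lengths identical to a GENCODE M21 transcript was found for 2427 of them (54.2%). Of these 1775 matched lincRNA genes and 147 matched genes that GENCODE calls protein-coding. The outer ends were not required to match: 1919 had the same 5′ end and 1715 the same 3′ end.
The rule counts blocks, and 491 features (11.0%) had no gap of 30 bases or more between their blocks, shorter than spliced introns are known to be; these are named where they appear below.
The 2 features just inside the distance rule were n267182, 5016 bases from Matr3 with 2 counts, and n296737, 5025 bases from Prei4 with no count.
Just outside lay n285556, 4999 bases from Larp1b with 64 counts, and n417478, 4975 bases from Sox9 with 1 count.

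The libraries were made from RNA selected by oligo(dT), which needs a poly(A) tail, so the 3′ ends of features that lead the results are shown, from the matched GENCODE M21 transcripts (GRCm38 coordinates of the printed 100 bases).
Capitals mark the poly(A) signal hexamers AATAAA and ATTAAA within the last 50 bases, the element that directs cleavage and tail addition.
n264684 (Gm26619, chr13:97760866-97760965, plus strand, highest fold above sham in E13.5): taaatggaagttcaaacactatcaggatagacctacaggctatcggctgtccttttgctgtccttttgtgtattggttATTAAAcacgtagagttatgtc
n269715 (AC119982.1, chr19:27260735-27260834, minus strand, lowest fold in E13.5): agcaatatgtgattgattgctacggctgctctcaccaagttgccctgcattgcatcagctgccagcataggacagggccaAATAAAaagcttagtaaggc
n278873 (Gm28979, chr9:101347918-101348017, plus strand, lower in E13.5 and in TAC): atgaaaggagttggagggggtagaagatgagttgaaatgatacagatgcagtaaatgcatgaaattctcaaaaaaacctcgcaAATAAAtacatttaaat
n281399 (Gm44386, chr6:86513891-86513990, minus strand, abundant in adults and low in E13.5): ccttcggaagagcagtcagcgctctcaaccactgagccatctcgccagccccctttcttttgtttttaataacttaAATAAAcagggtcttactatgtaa
n271090 (Gm12092, chr11:29612324-29612423, minus strand, higher in TAC): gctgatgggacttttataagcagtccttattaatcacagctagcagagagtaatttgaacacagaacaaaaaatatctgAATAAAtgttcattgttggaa
n271170 (BB218582, chr2:106642917-106643016, minus strand, lower in TAC): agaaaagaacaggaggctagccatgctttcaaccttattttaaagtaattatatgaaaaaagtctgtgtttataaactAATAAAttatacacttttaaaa
n296800 (1700021F13Rik, chr5:119805329-119805428, minus strand, next to Tbx5 and higher in E13.5): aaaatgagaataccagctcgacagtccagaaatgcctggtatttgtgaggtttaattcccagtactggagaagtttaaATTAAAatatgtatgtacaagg
n419894 (Mir670hg, chr2:94251879-94251978, minus strand, higher in E13.5): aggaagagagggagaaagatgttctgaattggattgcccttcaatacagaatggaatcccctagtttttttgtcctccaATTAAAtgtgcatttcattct
n286191 (5033428I22Rik, chr8:57340583-57340682, plus strand, next to Hand2 and higher in E13.5): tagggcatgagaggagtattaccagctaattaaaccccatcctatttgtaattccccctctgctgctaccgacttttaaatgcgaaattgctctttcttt

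The first 8 of these ends carried a hexamer, which began 17 to 24 bases from the transcript's end, the last base included. n286191 (5033428I22Rik) carried none in its last 50 bases.
For 1325 (58.1%) of the 2280 features matched to noncoding GENCODE genes, the matched transcript had a hexamer in that window. Over GENCODE M21 it was 30.9% of 30258 noncoding and 50.2% of 58797 coding transcripts.
Among matched features the share was much the same whether or not they were counted in these hearts. It was 58.5% of the 1304 with no count and 56.8% of the 222 with at least 27 counts.
A hexamer is a string match and does not show that the site is used. Where a feature's 3′ end differs from that of its match, the window is that of the match.

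Most of the intergenic multi-exon lncRNAs were not detected.
In 2456 of 4475 (54.9%) no read was counted in any of the 27 libraries, and 518 (11.6%) reached 27 counts over all libraries, an average of 1 per library.
Of 20031 coding genes 13.9% had no count, and of the 3420 single-block intergenic lncRNAs 41.9%.
None of the 656 features without a base of their own had a count, while 43.4% of the 3127 with at least 50% of their bases to themselves had none.
A single E13.5 library held counts in 806 to 971 features, and a sham library in 613 to 703, but a 6-week library in only 344 to 416, at a lower depth; the number detected per library was not compared across depths.

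**Figure D1:**
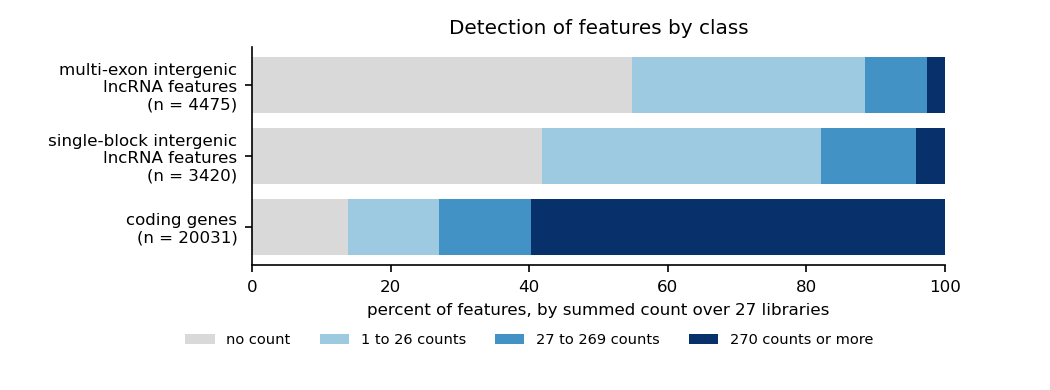
Bars give the percent of features by their summed count over the 27 libraries, for coding genes, single-block intergenic lncRNA features and multi-exon intergenic lncRNA features. The multi-exon class has the longest segment without a count, 54.9% of 4475, and the coding genes the shortest, 13.9% of 20031.

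The counts that were made sat in very few features.
All 4475 together took 0.190% to 0.465% of a library's counts, and of these 468087 counts 41.4% came from n265835 alone and 70.2% from the 10 highest features.
n265835 lies on chromosome 3 (mm9 chr3:5860338-5860826, plus strand), 284099 bases from Pxmp3, a peroxisome assembly gene; it has 485 exonic bases in 2 blocks only 4 bases apart.
Its level was 319 to 1268 CPM in E13.5 (median 461) and 1078 to 1854 at 6 weeks (median 1376).
It was 2063 to 2727 at 16 weeks (median 2453), 1313 to 1739 in sham and 733 to 1238 in TAC.
E13.5 replicate 2 stood apart at 1268 CPM, where the other embryos were between 319 and 563.

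The other most abundant features were of the same mixed kind.
n424047 (chromosome 17, 359223 bases from Pgk2, blocks 5 bases apart) had group means from 78.9 CPM in E13.5 to 938 at 16 weeks. Only 10 of its 1703 exonic bases were its own, so its counts need not stand for the feature as a whole. For the same reason its level per length cannot be set beside those of others. Adult groups differed too: sham hearts, at 192 to 240 CPM, lay below all unoperated adults, at 389 to 1221.
n420419 (chromosome 4, 20072 bases from Chchd7) ran from 59.5 ± 10.8 CPM (SD, n = 6) at 16 weeks to 222 ± 119 (SD, n = 4) in TAC; TAC replicate 2 was at 400 CPM and the other 3 at 156, 160 and 173.
GENCODE M21 lists Gm11808, a coding gene of 1 exon, on the opposite strand between Chchd7 and Sdr16c5, and reads without strand cannot be told apart between overlapping genes; an overlap was not tested.
n413706 (Gm26825, chromosome 5, near Steap1) had group means between 76.5 and 124 CPM, and its sham and E13.5 libraries overlapped.
The lincRNA n281399 and the Myh7 neighbour n265935, also among the 6 highest per kilobase of own sequence, are described below.
Features whose blocks are all under 30 bases apart made up 11.0% of the set and took 61.1% of its counts, or 33.6% of those outside n265835.

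Embryonic hearts were set against adult hearts in 2 ways, first against sham because those libraries were as deep, asking which of these lncRNAs differ between the forming and the grown heart.
In E13.5 against sham, 213 of the 4475 features passed the expression filter, which kept features with about 10 counts or more in enough libraries.
Of these 164 passed an adjusted p of 0.05 in edgeR's quasi-likelihood test, 83 higher and 81 lower in E13.5; over all 18677 features tested 76.3% passed, 40.7% higher and 35.6% lower.
The share of these lncRNAs called, 77.0%, was thus near the background.
Their fold changes spread further: the middle 50% ran from -1.26 to 1.39 on the log2 scale around a median of 0.02, where all features ran from -0.75 to 1.01 around 0.12.
With the 16 features that had no count in an arm set at their bound the median was 0.02 as well. For the single-block intergenic lncRNAs the middle 50% ran from -0.53 to 1.42. The filter can keep a low-count feature through the group where it is high. Spreads were not compared at like counts, so the wider one cannot be read as a trait of these lncRNAs.
Groups did not overlap in 129 of the 213 features, against 63.9% of all features tested.

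**Figure D2:**
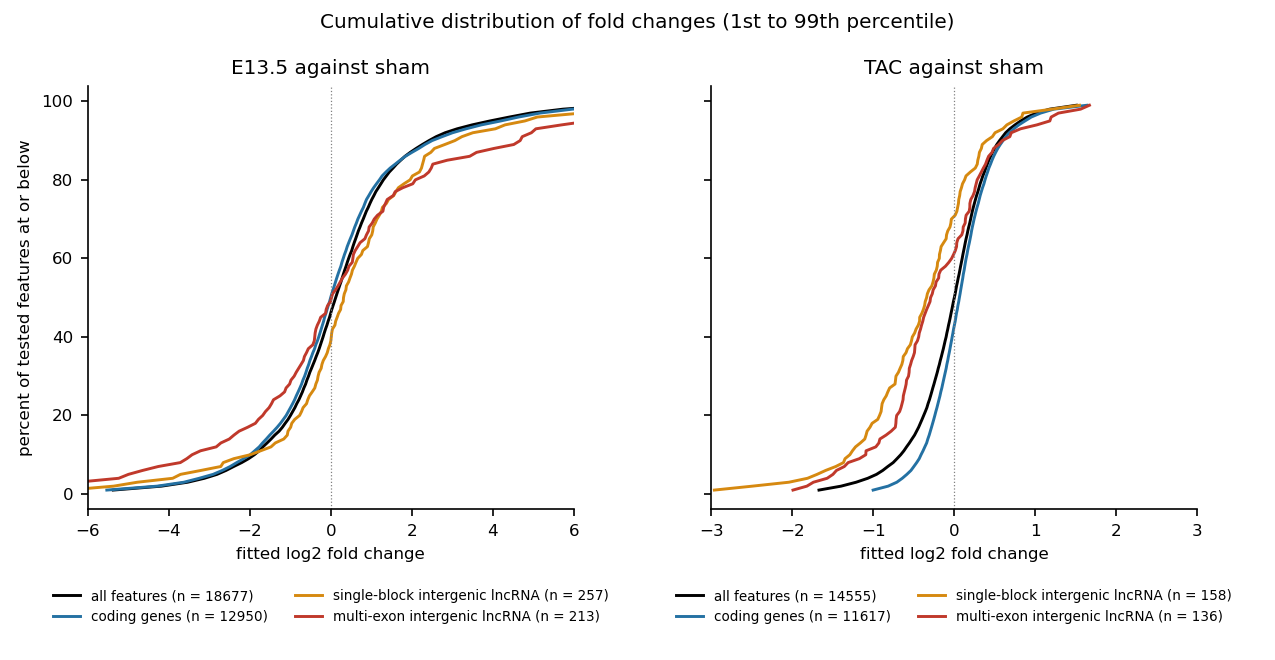
Each curve gives the percent of tested features (y axis) whose fitted log2 fold change is at or below the value on the x axis, for E13.5 against sham and TAC against sham. In the right panel the multi-exon lncRNA curve lies to the left of all features over most of its length, with medians of -0.29 and 0.00.

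The named features highest in E13.5 relative to sham had few or no counts in sham hearts, which a ranking by fold favours.
n264684 (Gm26619, a lincRNA on chromosome 13, 137632 bases from Rgnef) was at 26.8 CPM in the lowest embryo, 48.9 in the median and 63.0 in the highest, and at 0.111, 0, 0 and 0.102 CPM in the 4 sham hearts.
Against 2 counts in sham, its 4372 counts gave a ratio of 773 (95% interval 214 to 6384, counting error only).
The fit gave a log2 fold change of 9.28 ± 0.67 (SE, adjusted p = 2.34e-07, edgeR).
It was not silent in every adult: 3 of the 6 hearts at 6 weeks had 6.92, 11.1 and 17.4 CPM and the other 3 had 0, as did all 6 at 16 weeks.
n343163 (chromosome X, 3 blocks, 1970 exonic bases) was at 3.90 to 5.45 CPM in the 7 embryos and was without a count in the 20 adult hearts.
It was at least 53.7-fold higher than sham when the sham group is set at a floor of 3 counts over the group (adjusted p = 6.42e-11, edgeR).

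n282552 and n272395 are overlapping models of 1 locus near Iqsec1, an activator of small GTPases, and their blocks are 3 and 6 bases apart.
They were at 2.61 to 4.09 and 2.02 to 3.58 CPM in embryos and had no count in sham, at least 39.4-fold and 27.2-fold higher in E13.5 against the same floor.
Iqsec1 itself moved the other way, at -0.72 ± 0.07 (SE) on the log2 scale in E13.5 against sham.
n424066 matched Miat, a long nuclear RNA, but only 1923 of its 8767 exonic bases were its own, so its counts need not stand for Miat as a whole. Its embryos ran from 0.338 to 9.09 CPM with a median of 2.26, sham had no count, and the call was marginal (at least 28.8-fold, adjusted p = 0.0450, edgeR).
The highest embryo, replicate 3, stood far above the next at 2.71 CPM, and the call was lost in 10 of 16 alternatives.

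n416561 matched Apela, which the NONCODE annotation carries as a lncRNA and GENCODE M21 as coding: it makes a short secreted peptide hormone, a ligand of the apelin receptor that acts in early heart formation.
It was at 1.71 to 3.51 CPM in the 7 embryos and had no count in any adult heart, at least 27.1-fold higher than sham (adjusted p = 1.63e-08, edgeR).
Its reading frame takes 165 bases, 16.9% of the matched transcript, with 54 codons before the stop, and is shown because it is what separates the feature from a noncoding RNA; capitals mark the start and stop codons, and the printed run joins 2 exons.
n416561 (Apela coding sequence, between the ends chr8:65035666-65036965 of GRCm38, minus strand): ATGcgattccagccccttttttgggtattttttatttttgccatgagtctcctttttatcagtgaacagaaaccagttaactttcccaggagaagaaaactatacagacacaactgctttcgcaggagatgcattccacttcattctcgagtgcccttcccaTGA

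Apela was not the sole case: 15 of the 213 tested features matched genes that GENCODE calls coding. Of these 13 were called, 5 higher and 8 lower, where 76.3% of all features tested were called, 40.7% higher and 35.6% lower.
Without them 151 of 198 features were called, 78 higher and 73 lower.

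The 6 named features lowest in E13.5 relative to sham had sham means from 2.91 to 47.3 CPM. A level in sham was required of them, since naming asked for a mean of at least 1 CPM over the libraries compared.
n281399 (Gm44386, chromosome 6, 8219 bases from Pcbp1, 427 exonic bases) was the most abundant of them: 0.374 to 0.957 CPM in embryos, 42.6 to 78.9 at 6 weeks, 57.7 to 68.4 at 16 weeks, and 47.5, 42.1, 45.8 and 53.8 in sham.
It fell by 6.25 ± 0.14 (SE) on the log2 scale (adjusted p = 1.19e-18, edgeR), while Pcbp1, an RNA-binding protein gene, rose by 0.36 ± 0.07.
n269715 (AC119982.1, 11115 bases from Vldlr, a lipoprotein receptor gene) had no count in any embryo and was at 6.86, 7.46, 11.6 and 6.43 CPM in sham, at least 249.9-fold lower in E13.5 against the floor of 3 counts.
Vldlr fell too, by 2.76 ± 0.07 (SE) on the log2 scale.
n278873 (Gm28979, 129025 bases from Ppp2r3a) also had no count in an embryo, and was at 2.10, 3.56, 2.62 and 3.37 CPM in sham, at least 94.3-fold lower in E13.5.

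n278505 (chromosome 14, 8999 bases from Osgep, blocks 7 bases apart) was at 0 to 0.303 CPM in embryos and at 19.4, 28.7, 28.5 and 22.8 in sham, a change of -7.40 ± 0.26 (SE) on the log2 scale.
n286334 (chromosome 6, blocks 3 bases apart) was at 0 to 0.244 CPM in embryos and 7.00 to 10.9 in sham.
n287484 (chromosome 1, 33112 bases from Fhl2, a LIM-domain gene of heart muscle) was at 0 to 0.281 CPM in embryos and at 9.07, 9.53, 11.3 and 9.49 in sham (-6.27 ± 0.28, SE, log2 scale, adjusted p = 3.35e-14, edgeR).
Fhl2 itself fell by 4.85 ± 0.09 (SE), and over the 27 libraries the 2 transcripts' log2 levels had r = 0.97, a description of points that share libraries and groups.
In these 6 features every embryo lay below every sham heart, which the rule for naming them required.

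**Figure D3:**
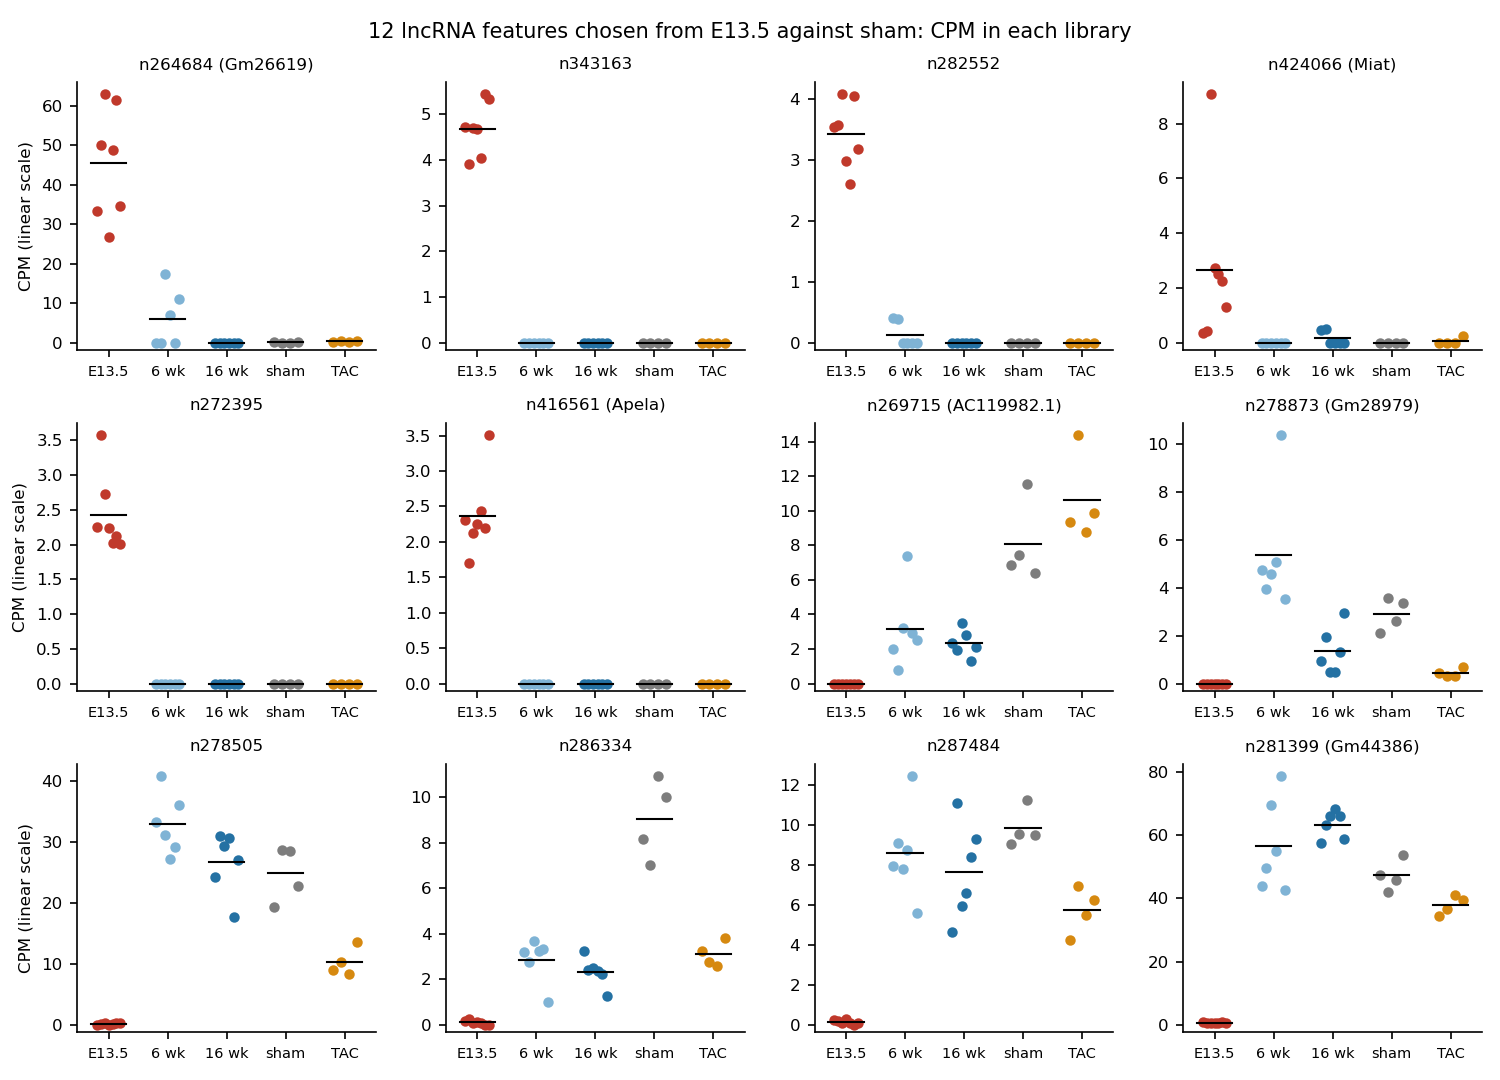
CPM per library (y axis, linear, from 0) of the 12 features with the largest changes between E13.5 and sham; points are libraries and lines are group means. The first 6 are high in E13.5, with 3 of the 6-week libraries of n264684 between 6.92 and 17.4 CPM, and the last 6 are near 0 in E13.5.

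Against the 12 unoperated adults, whose depth was lower, 74 features passed the filter and 56 were called, 28 higher and 28 lower in E13.5; over 12766 features tested the shares were 83.8% in either direction, 44.1% higher and 39.7% lower.
Groups did not overlap in 38 of the 74, against 54.5% of all features tested.
This fit shares its embryos with the sham comparison, so the values are given side by side and not as separate support.
The log2 differences were 7.12 and 9.28 for n264684, 7.94 and 8.78 for n343163, -6.48 and -6.25 for n281399, and -5.83 and -6.27 for n287484, against unoperated adults and sham in that order.
On the X chromosome 8 features were tested against sham. Of these 7 were called higher and 1 lower, where over all features tested 40.7% were higher and 35.6% lower.
Among the 8 was n414537, which matched Ftx, a regulator of Xist, with 1684 of its 4380 exonic bases its own. It was at 1.31 to 2.44 CPM in embryos and 0.306 to 1.23 in sham (1.3 ± 0.32, SE, log2 scale, adjusted p = 0.00127, edgeR).
Y-linked genes had 690 and 826 counts in 2 of the 7 embryos and at most 6 in the other 5, and 663 and 812 in 2 of the 4 sham hearts and at most 2 in the others.
The part of sex in these 8 features was not tested, and they were not set against other X-linked features.

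Features next to genes of heart development were mixed in direction.
The list held 50 transcription factor and signalling genes, of which 29 were the nearest coding gene of 114 features; 47 of these had a count.
Against sham 8 were tested, 3 called higher and 3 lower, with a median of -0.07 on the log2 scale against 0.12 for all features.
n296800 (1700021F13Rik), 26794 bases from Tbx5, a factor of atrial and septal development, was at 0.833 to 1.18 CPM in the embryos and without a count in the 20 adult hearts, at least 11.2-fold higher than sham.
Tbx5 rose by 0.56 ± 0.08 (SE) on the log2 scale.
n286191 (5033428I22Rik), 7600 bases from Hand2, a factor of right ventricular and cushion formation, was at 3.33 to 6.55 CPM in embryos and at most 1.12 in sham, a rise of 2.73 ± 0.32 (SE, adjusted p = 2.48e-07, edgeR). Of its 2045 exonic bases 990 were its own. It shares a locus with n291083, another of the features called higher, so these calls are not separate.
Hand2 rose by 0.78 ± 0.08.
n268409, with 283 of its 1009 exonic bases its own, went against its neighbour. It lay 36192 bases from Gata5, an early endocardial factor, and was at 0.0758 to 0.569 CPM in embryos and 1.94 to 4.59 in sham (-3.11 ± 0.34, SE).
Gata5 was at 36.3 to 49.7 CPM in embryos and at most 0.115 in sham.

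Near contraction and calcium genes 14 features lay next to 8 of 45 genes, 11 had a count and 1 was tested.
That 1 was n265935 (mm9 chr14:55620430-55621814, minus strand), 6959 bases from Myh7, the slow myosin heavy chain, on the same strand; its 3 blocks are 1 base apart.
It was at 2.27 to 4.64 CPM in embryos, 94.1 to 157 at 6 weeks, 60.3 to 99.96 at 16 weeks, 103, 111, 83.9 and 104 in sham, and 60.8, 72.5, 53.2 and 66.8 in TAC.
Myh7 was at 6748 to 10642 CPM in embryos, 457 to 465 in sham and 1344 to 3462 in TAC.
Over these 3 groups its order was opposite to that of the feature.
Unoperated adults did not follow that order: their Myh7, at 2353 to 3485 CPM, overlapped the TAC range, and most of them had the feature above its TAC level.
In E13.5 against sham the feature changed by -4.89 ± 0.12 and Myh7 by 4.11 ± 0.13 (SE, log2 scale), and in TAC against sham by -0.71 ± 0.10 and 2.44 ± 0.29, each past the threshold in edgeR.
These comparisons share the sham hearts.

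Next to metabolism genes, 4 features near 3 of 28 genes included 2 near Ppara, the nuclear receptor that drives fatty acid use in adult muscle; both were tested and both were lower in E13.5.
n283476, 54148 bases from Ppara with blocks 1 base apart, was at 1.43 to 2.44 CPM in embryos and 7.30, 8.73, 6.01 and 5.31 in sham (-1.99 ± 0.18, SE, adjusted p = 3.98e-09, edgeR). n272141, whose blocks are also 1 base apart, changed by -1.14 ± 0.31 (SE), a call lost when libraries with a sex mismatch were left out (-0.47).
Ppara changed by -4.16 ± 0.09 on the same scale.
The matrix and overload list (16 features near 9 of 36 genes) and the growth and imprinting list (7 features near 3 of 21 genes) had no tested feature in any comparison.

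The imprinted stretch of chromosome 12 that holds the maternally expressed lncRNAs Meg3, Rian and Mirg is covered by many overlapping models.
Rtl1, a paternally expressed gene of that cluster, was the nearest coding gene of 40 features, 14 of them matched to Meg3, 4 to Rian and 2 to Mirg.
Of the 14 Meg3 matches 12 had no base of their own, and 26 of the 40 had none; 11 had a count.
Summed over the 40 features the level was 5.90 to 9.62 CPM in embryos (702 counts), 0.111 to 0.510 in sham (11 counts), at most 0.923 at 6 weeks and 0.348 or less in TAC.
Both tested features were higher in E13.5: n291019 (Mirg), a microRNA host transcript, was at 3.26 to 5.83 CPM against at most 0.306 in sham (4.70 ± 0.39, SE, log2 scale, adjusted p = 8.74e-10, edgeR).
The other was n269274, with blocks under 30 bases apart and named here after its values were seen, at 0.842 to 2.44 CPM against at most 0.115.
Rtl1 was higher too, by 3.67 ± 0.36.

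Matches to lncRNAs with a published name, chosen after their values were known, included calls in both directions.
n342977 (Trp53cor1, lincRNA-p21), 12018 bases from the cell cycle inhibitor gene Cdkn1a, was at 3.83 to 5.99 CPM in embryos and 0.221 to 1.23 in sham (2.48 ± 0.28, SE, adjusted p = 9.49e-08, edgeR).
Cdkn1a did not pass in the same comparison (-0.05 ± 0.10, adjusted p = 0.675, edgeR). Against unoperated adults Cdkn1a was lower in E13.5 (-0.81 ± 0.27, SE, adjusted p = 0.0105, edgeR) and n342977 higher (2.84 ± 0.32, SE).
n419894 (Mir670hg) was at 1.36 to 2.08 CPM in embryos with no count in sham, at least 19.8-fold higher, and n297165 (Ctcflos) was higher by 3.08 ± 0.43 (SE).
n412951, a model of the snoRNA host Snhg17, had only 305 of its 3732 exonic bases to itself. It was higher by 1.01 ± 0.40 (SE, adjusted p = 0.0267, edgeR), a call lost without sham replicate 1 (0.65) or 3 (0.85).
n424058, whose exon chain matched Halr1 in the Hoxa cluster, changed by -2.26 ± 0.48 on the log2 scale (SE), with embryos at 0.0813 to 0.985 CPM and sham at 0.574 to 3.10.
n267831 (Bvht), named for its need in cardiac lineage commitment, was at 4.88 to 7.49 CPM in embryos and 9.09 to 13 in sham (-0.85 ± 0.14, SE, adjusted p = 1.61e-05, edgeR).
n275245 (Tbx3os1) had a log2 difference of -0.01 ± 0.49 (SE, adjusted p = 0.988).

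Pressure overload was tested as TAC against sham, both at 12 weeks.
Of the 136 features tested 48 were called, 14 higher and 34 lower in TAC; over all 14555 features tested 38.0% were called, 19.6% higher and 18.4% lower.
The count called, 35.3%, was near the background, but fewer were higher than lower. Over all features the split was nearly even, and of the coding genes 2735 were higher and 1650 lower. Of the single-block intergenic lncRNAs 13 were higher and 52 lower, so the skew was not particular to the multi-exon set.
The median log2 difference was -0.29, against 0.00 over all features, 0.06 over coding genes and -0.34 over the single-block intergenic lncRNAs, so a median below 0 was found in single-block features too.
Groups did not overlap in 49 features, against 35.7% of all features tested.

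The falling features included transcripts seen above as lower in E13.5 than in sham.
n278873 (Gm28979) was at 2.10, 3.56, 2.62 and 3.37 CPM in sham and 0.446, 0.320, 0.322 and 0.696 in TAC, the steepest of the named falls (-2.73 ± 0.34, SE, log2 scale, adjusted p = 1.97e-05, edgeR). Unoperated hearts were at 3.55 to 10.4 CPM at 6 weeks and at 0.472 to 2.96 at 16 weeks, the latter overlapping TAC.
n271170 (BB218582, 42905 bases from Mpped2, 426 of its 1027 exonic bases its own) was at 1.88, 1.95, 1.54 and 2.24 CPM in sham and 0.446, 0.533, 0.536 and 0.348 in TAC (-2.05 ± 0.32, SE, adjusted p = 0.000163, edgeR). Its unoperated adults, at 0.883 to 5.57 CPM, were above TAC.
In n278873 and n271170 every TAC heart lay below every sham heart, which the rule for naming them required.
n286334 was at 8.18, 7.00, 10.9 and 9.998 CPM in sham and 3.23, 2.77, 2.57 and 3.83 in TAC, and its unoperated adults, at 1.01 to 3.66 CPM, were nearer to TAC than to sham.
n269758 and n270122, with blocks 1 and 9 bases apart, changed by -1.88 ± 0.33 and -1.79 ± 0.29 (SE), and n278566 (Gm37027, 257 exonic bases) by -1.75 ± 0.32, with 1.92 CPM in TAC replicate 2 and at most 0.891 in the other 3. Unoperated adults overlapped TAC in n269758, n270122 and n278566.

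The promoters that RefSeq gives for the 2 steepest of these falls, Gm28979 and BB218582, are printed because the 2 features fell together; they run from 250 bases before to 50 after the annotated start in GRCm38.p6.
Capitals mark matches, on either strand, to AGATAA, a motif of GATA-binding factors, to CCAAT, to TATAAA and to GGGCGG, and these motifs did not overlap.
n278873 (Gm28979 promoter, chr9:101341944-101342243, plus strand): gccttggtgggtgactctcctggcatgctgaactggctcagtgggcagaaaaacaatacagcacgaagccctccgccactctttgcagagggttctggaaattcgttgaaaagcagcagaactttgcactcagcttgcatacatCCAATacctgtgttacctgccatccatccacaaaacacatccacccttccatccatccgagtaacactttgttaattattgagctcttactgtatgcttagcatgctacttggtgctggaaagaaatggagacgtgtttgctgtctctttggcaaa
n271170 (BB218582 promoter, chr2:106650315-106650614, minus strand): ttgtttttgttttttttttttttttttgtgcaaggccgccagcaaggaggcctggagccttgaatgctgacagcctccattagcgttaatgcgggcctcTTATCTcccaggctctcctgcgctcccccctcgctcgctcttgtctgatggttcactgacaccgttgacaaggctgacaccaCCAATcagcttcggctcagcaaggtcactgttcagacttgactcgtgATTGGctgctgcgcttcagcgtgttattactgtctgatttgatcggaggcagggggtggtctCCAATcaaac

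Gm28979 held 1 CCAAT match and none of the other 3; BB218582 held 3 CCAAT matches and 1 AGATAA match.
Over 32851 RefSeq promoters of the same 300 bases, 37.4% held CCAAT, 11.2% AGATAA, 13.6% TATAAA and 35.7% GGGCGG.
These are string matches in a window around an annotated start, and no factor's binding was measured.

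Among named lncRNAs n267654, which matched Carmn, a smooth muscle and cardiac lineage lncRNA that hosts a pair of smooth muscle microRNAs, had the clearest change with TAC.
It was at 8.63, 8.04, 9.40 and 9.18 CPM in sham and 2.56, 3.20, 3.65 and 3.71 in TAC, without overlap (-1.46 ± 0.17, SE, log2 scale, adjusted p = 1.07e-05, edgeR).
Embryos, at 1.87 to 3.83 CPM, and unoperated adults, at 0.923 to 5.19, were all below sham as well, so sham was the high group.
Its neighbour on the other strand, n267831 (Bvht), did not pass, at 9.09 to 13 CPM in sham and 7.94 to 12.3 in TAC (-0.23 ± 0.17, SE, adjusted p = 0.286, edgeR).
The smooth muscle and pericyte markers summed to 1250 to 1476 CPM in sham and 1155 to 1513 in TAC.

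Of the 136 features tested, 8 rose and 16 fell by at least 2-fold; over all features tested 2.97% rose and 4.41% fell by as much.
n264397 (chromosome 6, 13444 bases from Klrb1b, a natural killer cell receptor gene) was at 0.553, 0.804, 0 and 0.714 CPM in sham and 2.79, 4.16, 2.79 and 2.32 in TAC (2.38 ± 0.40, SE, log2 scale, adjusted p = 0.000277, edgeR).
n271090 (Gm12092) was at 0.574 to 0.885 CPM in sham and 3.12, 3.09, 1.5 and 1.74 in TAC (1.69 ± 0.34, SE). Its unoperated adults, at 0 to 3.09 CPM, overlapped TAC.
n295544 (AC138228.2, 35740 bases from Hsf2bp) was at 1.84 to 2.18 CPM in sham and 7.02, 7.67, 4.83 and 4.64 in TAC (1.53 ± 0.22, SE, adjusted p = 9.45e-05, edgeR). No embryo had a count of it, and unoperated adults, at 0.792 to 5.03 CPM, overlapped TAC.
n412124 rose by 1.29 ± 0.35, n280007 by 1.20 ± 0.36 (0.99 and no longer called without sham replicate 4, 1.39 and no longer called without libraries of mismatched sex) and n296214, the most abundant of the 6, by 1.19 ± 0.20 (SE), from 1.95 to 3.70 CPM in sham to 5.56 to 7.78 in TAC. Only 780 of the 1849 exonic bases of n296214 were its own.
In these 6 the sham and TAC hearts did not overlap, which the rule for naming them required. Unoperated adults lay below TAC in n264397, n412124 and n296214, and overlapped it in n280007. The leukocyte and fibroblast sums given above were higher in the same TAC hearts, and their part in the 6 rises was not tested.

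**Figure D4:**
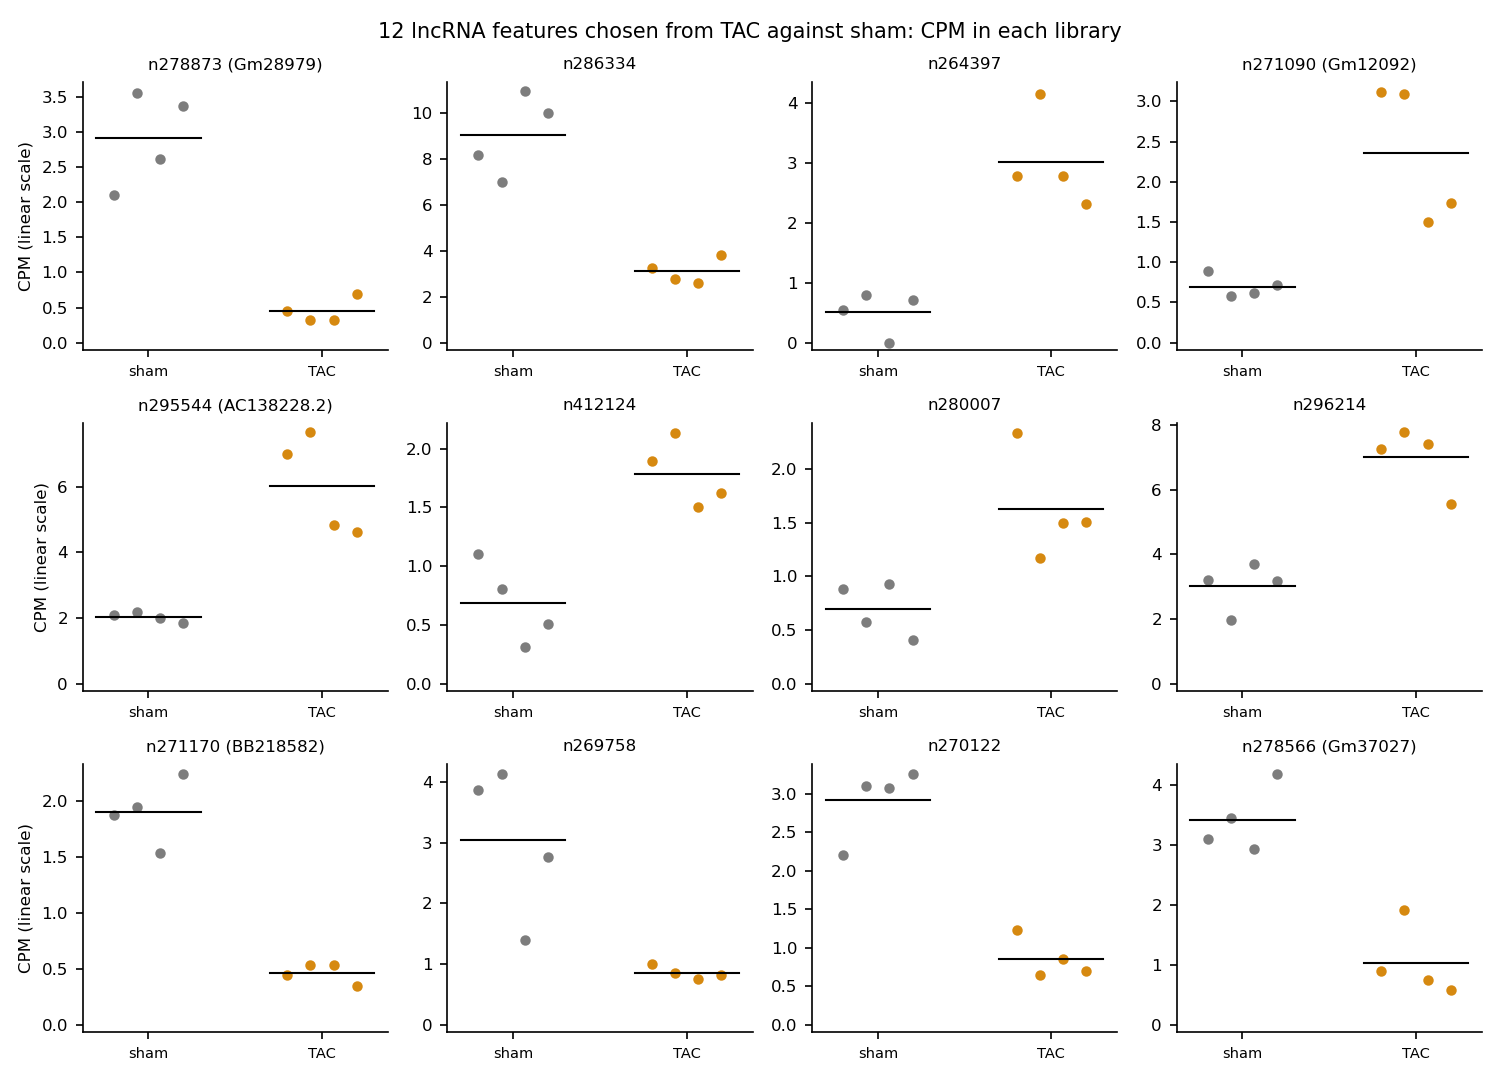
CPM per library (y axis, linear, from 0) of the 12 features with the largest changes between sham and TAC; points are the 4 hearts of each group and lines are group means. In n278873 the TAC hearts lie at 0.320 to 0.696 CPM and the sham hearts at 2.10 to 3.56, and in n264397 the order is the reverse.

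Embryo against unoperated adult and TAC against sham share no library, so their calls can be set side by side.
Of 61 features tested in both, 44 were called in the first and 23 in the second, and 16 in both, which is 36.4% of the first list and 69.6% of the second.
Since 72.1% of the 61 were called in the first comparison, the overlap was near that share; over the 12155 features of any kind tested in both, 84.3% of the TAC calls and 83.0% of all were called there.
Of the 16, 10 were lower in both, 2 higher in both, 1 higher in E13.5 and lower in TAC, and 3 the reverse. The 10 included n281399, n278505, n287484, n265935 and n283476; the log2 differences of these 5 in TAC lay between -1.31 and -0.36, and between embryo and adult between -7.49 and -2.08; the TAC call of n283476 was lost when libraries with a sex mismatch were left out (-0.37).
Over the 61 features the fold changes had r = 0.28 across features, which are not independent replicates.

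Between 16 and 6 weeks of age few features differed.
Of 43 tested 3 were called, 2 higher at 16 weeks and 1 lower; over all 10394 features tested 2.51% were called, 1.32% higher and 1.19% lower.
Groups did not overlap in 3 of the 43, against 2.05% of all features tested.
n265835 was higher in every 16-week heart (2063 to 2727 CPM) than in any 6-week heart (1078 to 1854), by 0.75 ± 0.11 (SE, log2 scale, adjusted p = 0.00467, edgeR).
n291524 (chromosome 13, 24896 bases from Nxnl2) was at 1.38 to 4.05 CPM at 6 weeks and 5.74 to 8.96 at 16 weeks (1.55 ± 0.29, SE, adjusted p = 0.00556, edgeR), resting on 31 and 88 counts. Sham hearts, of an age between these groups, had 0.230 to 0.462 CPM, below every 6-week heart, and TAC hearts had 1.04 to 2.34. The level of n291524 thus did not follow age across all adult groups, though sham hearts also differed in operation and depth.
n265935, beside Myh7, was lower at 16 weeks (-0.56 ± 0.13, SE, adjusted p = 0.0321), though the age groups overlapped and the call was lost without 6-week replicate 3 (-0.53) or 16-week replicate 3 (-0.58) or 4 (-0.57).
All 3 are features with blocks under 30 bases apart; among the 31 tested features with a longer gap none was called by edgeR or DESeq2, and 4 had an unadjusted p under 0.05 in edgeR.

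Each feature was last set beside its nearest coding gene, to see whether the pair moved together.
In E13.5 against sham 164 features had a tested neighbour; both were called in 108 pairs, and in 65 of them (60.2%) in the same direction.
By distance the same direction was seen in 28 of 45 pairs at 5 to 20 kb, 23 of 45 at 20 to 100 kb and 14 of 18 beyond 100 kb, so it was not more frequent at short distance.
The 28 pairs beyond 100 kb had only 22 distinct neighbours, since several features share Chrm2, Ndn or Nfib.
In TAC against sham both were called in 18 of 92 pairs, 12 in the same direction, and the fold changes had r = 0.12 across pairs, against 0.28 in E13.5 against sham.
Pairs share libraries, and features of 1 locus share reads, so these are descriptions.

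**Figure D5:**
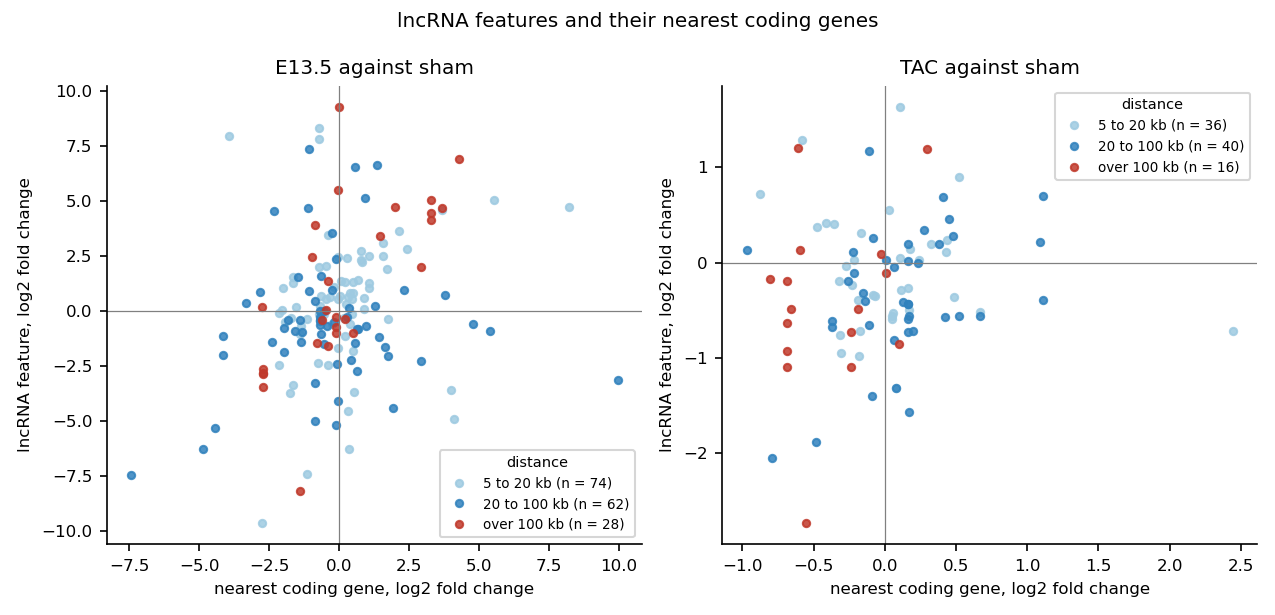
Each point is a lncRNA feature, with the log2 fold change of its nearest coding gene on the x axis and its own on the y axis, coloured by distance, for E13.5 against sham (164 pairs) and TAC against sham (92 pairs). Points fill all 4 quadrants in both panels; the TAC point farthest right is n265935 with Myh7, at 2.44 and -0.71.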

How the data were processed

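The authors deposited one table of read counts per annotated feature for 27 libraries; per the labels these were single-end, non-strand-specific libraries of oligo(dT)-selected RNA. Reads were handled with Bowtie, TopHat 1.3.0 and HTSeq on mm9, per the submitters' processing notes; the sources used here do not name the counting mode. The members and gene lists were chosen with earlier results of these data known.

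Counts were tested with edgeR 4.0.16 (quasi-likelihood, TMM scaling, filterByExpr with a minimum count of 10 and a total of 15, Benjamini-Hochberg over all features tested) in R 4.3.3, each comparison fitted on its own libraries; DESeq2 1.42.0 was an alternative. CPM values use 1 TMM scale over the 27 libraries, so folds come from the fits and not from the printed CPM. Named features were the 6 with the largest called change in each direction against sham (3 against unoperated adults and for age), with mean CPM of at least 1 and no overlap, the 6 highest per own kilobase, up to 3 called neighbours per gene list, the 2 nearest the distance limit on each side, and matches to named lncRNAs, the last chosen after their values were seen. The scripts were tested on simulated data. Each SE was taken from the fit as the size of the fold change (log2) divided by the root of its F. p-values measure the spread between hearts; intervals and floors cover counting error only.

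Exon starts of n-number features lie 1 base low in the deposited annotation: 7754 of 15314 multi-exon features matched a GENCODE M21 exon chain after the correction and 21 without it. Matches needed the same chromosome, strand and chain of intron and internal exon lengths, within 100 kb of the shift of neighbouring genes. GENCODE and RefSeq are on GRCm38, and no coordinate was converted. RefSeq held promoters for 1059 of 1876 matched symbols. Gap lengths are as deposited.

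Same-numbered libraries did not deviate together in every pair, so replicate numbers pair nothing. Y-linked counts were set against the sex labels. Marker sums cover 13 lists; Sln was listed at 0.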

Additional observations from a re-analysis of the deposited data

Results flagged for a closer look

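A library was singled out where its gap to the nearest of its group exceeded Dixon's 95% value, over 132 groups of 4 to 7 libraries (named features with a group mean of at least 1 CPM, and the share of counts in all members). This was so in 10 groups, and chance gives about 1 in 20. Of these, 2 concern a whole library's share of counts in the intergenic multi-exon lncRNAs: E13.5 replicate 2 had 0.330% (others 0.204% to 0.239%) and sham replicate 2 had 0.291% (others 0.241% to 0.245%). In the same embryo n265835 stood at 1268 CPM (others 319 to 563).

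In TAC replicate 2, n420419 stood at 400.4 CPM (others 156 to 173). In E13.5, n424066 (Miat) stood at 9.09 CPM in replicate 3 and n416561 (Apela) at 3.51 in replicate 7. At 6 weeks, n269715 stood at 7.38 CPM in replicate 4, n278873 at 10.4 in replicate 5 and n286334 at 1.01 in replicate 6. n275245 (Tbx3os1) stood at 1.49 CPM in sham replicate 2.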

How the results depend on the processing

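With no filter on low counts the features called were 417 (E13.5 against unoperated adults), 453 (E13.5 against sham), 8 (16 against 6 weeks) and 82 (TAC against sham), in place of 56, 164, 3 and 48. Requiring 1 CPM in every library of a group gave 120 against unoperated adults and 5 for age. With 3 or more blocks required the counts were 30, 86, 1 and 27, since fewer features were eligible. With the replicate block TAC against sham had 31 calls (8 higher, 23 lower); the numbers pair nothing by the labels, and the block moved no other count by over 1.5 times. Leaving out each library in turn gave 48 to 65, 153 to 162, 2 to 3 and 43 to 53 calls. RLE scaling gave 55, 164, 3 and 47 calls, DESeq2 55, 159, 3 and 44, and leaving out the libraries against their sex label 63, 168, 4 and 49. For 3 choices added after seeing the data, calls were 50, 151, 3 and 45 without features matched to coding genes, 54, 154, 3 and 47 with 1 feature per locus, and 42, 126, 0 and 39 with a gap of at least 30 bases.

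Of 1067 values of named features under alternatives, 1036 kept their side of the threshold, 23 lost the call and 8 gained it; none turned sign while called, and n275245, not called in E13.5 against sham under any of them, turned sign there in 10. The cause was not tested. Without TAC replicate 2, n265835, n424047 and n420419 passed in TAC against sham. n265935 lost its age call without 6-week replicate 3 or 16-week replicates 3 or 4. n280007 lost its call without sham replicate 4 and with the replicate block. Without the libraries against their sex label n268409, n283476 and n280007 lost their TAC calls (-0.86, -0.37 and 1.39). The 12 unoperated adult libraries, with at most 2682955 counts each, limit the comparisons with them.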
